A study of Mus musculus with 73 samples.

Results

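The 7 DNA fragments described here come from the neighbourhood of the mouse gene Otx2 and were tested as candidate enhancers in a reporter assay. They are all of the fragments whose name in the deposited table starts with Otx2_E, namely E108, E109, E110, E111, E112, E114 and E115, and they make up 7 of the 59 candidate enhancers of the series. Each was measured beside a control sequence, in 5569 combinations, and beside another Otx2 fragment, in 1036 combinations, out of 110180 combinations in all. No measured value was used to choose them.

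The assay was a massively parallel reporter assay, in which a plasmid carries a promoter, a barcoded GFP reporter and, downstream of it, a pair of inserted elements in positions 1 and 2, each on either strand. Plasmids were made as 8 libraries, one for each promoter (Sox2, Klf2, Otx2, Fgf5, Lefty1, Nanog, Ap1m1 and Tbx3), and every library was nucleofected separately into E14TG2a cells, a mouse embryonic stem cell line kept in medium that holds it in the naive pluripotent state. All groups share this cell line, the same culture medium and the same time from nucleofection to harvest. By label the libraries differ in promoter alone, but each was built and transfected separately, with its replicates on different days. Where the complexity of a library was too low, the study remade it by PCR and Gibson assembly, and it does not name which. The series lists 73 samples, of which 48 are cDNA, 16 are plasmid DNA and 9 are the sequencing that linked barcodes to inserts, with 3 biological replicates of each library. The cDNA of each replicate was sequenced in 2 runs, which are listed as separate samples. The inserted elements sit on a transient plasmid next to the reporter, so distance, chromatin and the native order of the locus are not part of the model.

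Otx2 is a homeobox transcription factor that is needed for the development of the head and forebrain and that acts earlier, when mouse embryonic stem cells leave the naive state. Enhancers are stretches of DNA that bind transcription factors and raise transcription from a promoter, and genes of early development often have several of them near by. Of the promoters tested, those of Sox2, Klf2, Nanog and Tbx3 belong to factors of the pluripotency network, Lefty1 encodes an inhibitor of Nodal signalling, Fgf5 a growth factor that rises as cells leave the naive state, and Ap1m1 a housekeeping subunit of a clathrin adaptor.

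E108, E109, E110, E111 and E112 lie in this order outside the gene, beyond its 3′ end, and E114 and E115 lie inside it. In mm10 (GRCm38) the Otx2 gene is annotated by RefSeq on the minus strand at chr14:48656781-48667644. The study lists E108 at chr14:48652530-48652979, E109 at chr14:48654012-48654461, E110 at chr14:48654527-48654976, E111 at chr14:48654889-48655338 and E112 at chr14:48655216-48655665. Counted to the nearest end of the gene, E108 is 3801 bp away and E112 1115 bp. The Otx2 promoter fragment is listed at chr14:48662796-48663245, E114 at chr14:48664703-48665152 and E115 at chr14:48666311-48666760. E114 holds one of the annotated start sites of Otx2, at position 48665109. Whether that stretch acts as a promoter was not tested here. The listed interval of the Otx2 promoter fragment holds 0 of the RefSeq start sites, the nearest being at position 48662734. The gap between fragment and promoter fragment ranges from 1457 bp for E114 to 9816 bp for E108.

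Neighbouring fragments overlap by their listed intervals. The listed intervals of E110 and E111 share 88 bp (chr14:48654889-48654976), and those of E111 and E112 share 123 bp (chr14:48655216-48655338). The primers that bound the cloned fragments show the junctions. They are printed on the plus strand, and capitals mark the 13 bases that the end of E110 and the start of E111 have in common.
E110 end: cctccatcccAGAACTTGCTTCT
E111 start: AGAACTTGCTTCTgaccctctgg
E111 end: ccaagtcggctttctcaatttgactag
E112 start: ccaaatccagcaaagccagtcagtc
The primer at the end of E111 does not run into the start of E112 in this way, and the bases between the primers were not available for comparison here.

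The start site inside E114 and the sequence of the Otx2 promoter fragment are shown next, because E114 had the narrowest range of boosts over promoters among the 7 and the Otx2 promoter is the one native to all 7 fragments. The low end of that range is the Fgf5 value, which depends on the baseline. A link between the start site and the range was not tested. Both are from RefSeq (GRCm38.p6), minus strand, and capitals mark a primer of the cloned fragment. The first, chr14:48665110-48665150, runs from the end of E114 to the base before the start site. The other, chr14:48662824-48662984, is the stretch of the promoter fragment that lies inside the RefSeq window.
E114 end: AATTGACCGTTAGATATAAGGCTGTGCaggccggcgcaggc
Otx2 promoter: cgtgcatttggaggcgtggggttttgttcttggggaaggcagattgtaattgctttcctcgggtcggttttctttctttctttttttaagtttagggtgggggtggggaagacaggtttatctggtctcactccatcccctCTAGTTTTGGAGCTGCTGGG

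Activity is the ratio of cDNA to plasmid DNA of a combination. The boost index of a fragment is the median log2 activity over its combinations with controls minus the log2 median activity of the control-control combinations of the same library, so that 0 is the level of a promoter with controls alone and 1 is a doubling. All values below are boost indices on this log2 scale unless an activity or a fold is named. Values of different libraries stand side by side because each was set against its own controls. The 3 replicates are transfections of the same plasmids, so their spread leaves out the variation between combinations and barcodes, and the number of barcodes behind a value is not in the table used here.

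The Fgf5 library limits what follows. Of its 60 control-control combinations 37 had an activity of 0 in any of the 3 replicates. The baseline rests on the 23 above 0 in all 3, or 38.3%. All 63 combinations of E111 with a control were above 0 there, and so were 108 of 124 for E115, 15 of 17 for E108, 68 of 91 for E112, 11 of 17 for E109, 18 of 29 for E114 and 15 of 26 for E110. Taking the control-control zeros into the baseline moved the boost of E114 with this promoter from -0.01 to 1.41 and that of E110 from -1.11 to 0.31. The sign of the Fgf5 values of the weaker fragments thus depends on this choice. Combinations of the fragments at 0, 11 of 29 for E114 and 11 of 26 for E110, stayed left out. The change therefore acts on the controls alone and can only raise a boost. The controls were also arranged differently. In the 7 libraries other than Klf2 both controls lay on the same strand in 99.7% of control-control combinations, in Klf2 in 80.9%, while for the Otx2 fragments and their controls the share was 50.7%.

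E111 was the strongest of the 7 with every promoter, and the other fragments were modest in comparison. Of the 56 combinations of fragment and promoter, 44 were higher than the controls of their library and 2 were lower (two-sided exact rank-sum test, 1% FDR). The test treats combinations with controls as independent, although they share the fragment, the controls and the transfections. Over all 451 fragment and promoter combinations of the series 87.6% were called higher and 1.77% lower, so the share of 78.6% among the Otx2 fragments was near the background. E111 was called higher with 8 of 8 promoters. E108, E109, E114 and E115 were called with 7 each, all but Fgf5, and E112 with 6 and E110 with 2.

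E111 raised the Lefty1 promoter by 4.18, 4.25 and 4.30 in the 3 replicates, a mean of 4.24 ± 0.06 (SD, n = 3) or 18.9-fold. With the Sox2 promoter it gave 4.03, 3.73 and 3.91 (14.8-fold), and with Tbx3 4.13, 3.93 and 3.51 (14.5-fold). No other Otx2 fragment exceeded 2.18 with any promoter. With Fgf5 the values of E111 were 3.52, 3.07 and 2.58. With Nanog they were 1.98, 2.33 and 2.05, with its own promoter, Otx2, 1.76, 1.80 and 2.12, and with Klf2 1.76, 1.90 and 1.74. The Ap1m1 promoter stood lowest at 0.71, 0.93 and 0.78, a 1.75-fold rise, and no replicate of any other promoter came down to these values. The promoters with high and low boosts had different control levels, from a log2 activity of -3.49 for Lefty1 to -0.77 for Ap1m1. The activity of E111 itself, as the ratio of cDNA to plasmid DNA, ranged from 1.02 in one Ap1m1 replicate to 2.73 in one Sox2 replicate. By the order of all fragments within a library, E111 was the third of 57 with the Otx2 promoter and between the fourth and the seventh with the others.

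E108, which lies farthest from the promoter fragment, was the next strongest by the mean over promoters. It gave 2.27, 2.21 and 2.06 with the Sox2 promoter and 2.05, 2.08 and 2.08 with Lefty1. With Otx2 it gave 1.00, 0.99 and 0.98, a doubling that hardly varied between transfections. It was lowest with Ap1m1, at 0.53, 0.51 and 0.49. With Fgf5 its 0.57 ± 0.13 (SD, n = 3) was not called (adjusted p = 0.163, exact rank-sum test), on 15 combinations.

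E114 and E115, the fragments inside the gene, gave alike and narrow ranges of boosts. E114 lay between 0.68 and 0.98 with the 7 promoters other than Fgf5, and E115 between 0.61 and 1.14. With the Otx2 promoter E114 gave 0.68, 0.62 and 0.79 and E115 0.73, 0.70 and 0.85. With Ap1m1, E114 gave 0.65, 0.76 and 0.62, which placed it at rank 13 of 57 fragments, while its 0.75, 0.79 and 0.86 with Sox2 placed it at rank 44 of 56. The means with these promoters, 0.68 and 0.80, lay close together beside this gap in rank. With Fgf5, E114 averaged -0.01 and E115 -0.18, neither called.

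E109 and E112 raised the promoters only slightly. Outside Fgf5, E109 ranged from 0.27 with Ap1m1 to 0.83 with Sox2, and with Otx2 it gave 0.34, 0.36 and 0.59. E112 ranged from -0.00 with Ap1m1, at -0.03, 0.01 and 0.02 in the replicates, to 0.75 with Sox2. For the Otx2 promoter the values of E112 were 0.13, 0.06 and 0.29. In the Fgf5 library the means were -1.01 for E109, on 11 combinations, and -0.48 for E112, and neither was called.

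E110, whose listed interval overlaps that of E111, was the weakest of the 7 by the mean over promoters. On the Otx2 promoter all 3 replicates were below the controls, at -0.32, -0.61 and -0.18 (mean -0.37 ± 0.22, SD; adjusted p = 2.44e-08, exact rank-sum test over combinations). With Nanog they were -0.24, -0.40 and -0.17 (mean -0.27 ± 0.12, SD; adjusted p = 0.000241 by the same exact test). These were the 2 combinations called lower, and E110 ranked last of 57 in both libraries. Their p-values count combinations that share E110, the controls and the 3 transfections, so they do not measure the spread between transfections. With the Sox2 promoter E110 was called higher on uneven replicates of 0.52, 0.11 and 0.97, and with Tbx3 on 0.32, -0.06 and 0.28. With Klf2, Lefty1, Ap1m1 and Fgf5 its means of -0.14, 0.15, 0.11 and -1.11 were not called. With only those combinations whose elements lay on the same strand, as in nearly all controls, E110 stood at -0.36 with Otx2 and -0.27 with Nanog.

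Whether the response depends on the promoter was asked of each fragment across the 8 libraries. All 7 Otx2 fragments differed between promoters (limma F test over 3 replicates a promoter, 5% FDR), as did 100% of the 49 fragments of the series that were measured with every promoter, so a call of this kind is not particular to the Otx2 fragments. The highest minus the lowest promoter mean was 3.43 for E111 (adjusted p = 7.59e-13, limma), 1.84 for E109 and 1.67 for E108. It was 1.65 for E110, 1.32 for E115, 1.23 for E112 and 0.99 for E114. For E109, E110, E112, E114 and E115 the lowest promoter was Fgf5, whose baseline is uncertain. With the Fgf5 zeros in the baseline 2 of the 7, E111 and E108, were still called, and without the Fgf5 library all 7 were.

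No Otx2 fragment was stronger with its own promoter than with the other developmental promoters. Against the mean over Sox2, Klf2, Fgf5, Lefty1, Nanog and Tbx3, the Otx2 promoter gave 0 of 7 fragments a higher boost at 5% FDR (4.08% of the 49 fragments of the series were called higher) and 2 a lower one (51% were called lower). E111 was lower by the most, with 1.89 for Otx2 against 3.16 for the others, a difference of -1.27 ± 0.14 (SE; adjusted p = 1.10e-07, limma), and 5 of the 6 other promoters were above Otx2. E108 had 0.99 against 1.43, a difference of -0.44 ± 0.10 (SE; adjusted p = 0.000468, limma). With combinations on the same strand only, E108 was at -0.42 and no longer called (adjusted p = 0.0613). For E110, E112, E109, E114 and E115 the differences were -0.26, -0.16, 0.09, 0.01 and 0.01, none called. Without the Fgf5 library 6 of the 7 were called lower, all but E114, and the differences of E109 and E115 became -0.18 each.

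Position in the plasmid mattered for some fragments. Taking the mean of the 3 replicates in each library and testing over the 8 libraries, 3 of the 7 fragments were lower in position 2 than in position 1 and 1 was higher (limma, 5% FDR). Of 57 fragments of the series so tested 26.3% were called lower and 19.3% higher. E112 was lower in position 2 in 8 of 8 libraries, from -0.58 in the Lefty1 library to -0.27 in the Ap1m1 library, with a mean of -0.48 ± 0.05 (SE; adjusted p = 3.46e-05, limma). With the Otx2 promoter it gave 0.51 in position 1 and 0.05 in position 2, and with Sox2 1.03 and 0.55.

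The differences of E108 and E109 were smaller, at -0.31 ± 0.07 and -0.30 ± 0.08 (SE; adjusted p = 0.00498 and 0.00978, limma). E115 was higher in position 2 by 0.12 ± 0.05 (SE; adjusted p = 0.0493), a call lost on leaving out any one of Klf2, Otx2, Lefty1, Nanog, Ap1m1 or Tbx3. The 2 positions did not hold the same mix of strands. Compared within strands, E112 differed by -0.32 and E108 by -0.33, both still called, although the call of E108 (adjusted p = 0.031, limma) was lost on leaving out Sox2, Lefty1 or Nanog. E109 differed by -0.03 and E115 by 0.12 within strands, neither called. Without the Fgf5 library, and with strands not matched, 4 of the 7 fragments were lower in position 2 and 2 were higher. E110 was added as lower, at -0.20 (adjusted p = 0.014, limma), and E114 as higher, at 0.16 (adjusted p = 0.00921, limma). Within strands and without Fgf5, E110 at -0.21 and E115 at 0.12 were called, and E114 at -0.10 was not. Over the replicates of each library, which leaves out differences between plasmids, 6 of 56 values were called higher and 18 lower, where the series had 19% and 20.2%.

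Strand effects were mostly in favour of the strand labelled plus. Over the libraries, 5 of 13 sets of fragment and position were higher on the plus strand and 1 was lower (limma, 5% FDR), against 19.4% and 21.3% of the 108 sets of the series. What the labels plus and minus mean relative to the genome was not established here. E112 in position 2 was higher on plus in 8 of 8 libraries, by 0.64 ± 0.05 (SE; adjusted p = 5.46e-05, limma). With the Otx2 promoter it gave 0.38 on plus and -0.29 on minus, with differences of 0.65, 0.65 and 0.70 in the replicates. With Ap1m1 it gave 0.19 and -0.57, one strand above the controls and one below. In position 1 the difference of E112 was 0.45 (adjusted p = 0.0019, limma).

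E111 and E114 showed the same direction in position 2. E111 was higher on plus by 0.44 ± 0.04 (SE; adjusted p = 7.35e-05, limma), in 8 of 8 libraries, and by 0.05 in position 1, which was not called. For the Otx2 promoter, E111 in position 2 gave 2.16 on plus and 1.72 on minus. E114 in position 2 was higher on plus by 0.49 ± 0.05 (SE; adjusted p = 0.000142, limma), in 8 of 8 libraries. In position 1, E114 was measured on both strands in the Sox2 library alone, on 1 plus combination and 37 minus ones, with a difference of -0.71 that was not called over replicates (adjusted p = 0.176, limma), so no comparison over libraries was made there. E115 in position 2 differed by 0.13 (adjusted p = 0.0256, limma), a call lost on leaving out any one of Sox2, Otx2, Lefty1, Nanog or Tbx3. E109 in position 1 went the other way, with a difference of -0.74 ± 0.12 (SE; adjusted p = 0.0012, limma), on 2 to 4 plus combinations a library. E108 in position 2 differed by 0.46, not called (adjusted p = 0.079), and by 0.66 without the Fgf5 library, where it was. E109 in position 2 differed by -0.23, not called (adjusted p = 0.139, limma). Without the Fgf5 library it differed by -0.34 and was called lower on plus (adjusted p = 0.0049, limma). In all, 6 of 13 sets were called higher on plus and 2 lower without that library. Over the replicates of each library 32 of 103 values were called higher on plus and 6 lower, where the series had 17.1% and 16%.

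Pairs of Otx2 fragments were compared with the sum of their single activities minus the baseline, an additive expectation formed on the linear scale in the same replicate. Of the 49 possible ordered pairs 42 were measured, none of them a fragment paired with itself, and 35 had a value with all 8 promoters. Combinations whose additive expectation was not above 0 in every replicate gave no value. This left 1025 of the 1033 combinations with activity above 0. A pair is written with the fragment of position 1 first, and log2 observed over expected is 0 where activities add. The median over 308 values of pair and library was 0.18, against 0.08 over the 20799 values of all ordered pairs of the series. In the Fgf5 library, with its uncertain baseline, the median of the Otx2 pairs was 1.06, and without that library it was 0.14, against 0.05. With the Fgf5 promoter the expectation can fall below both fragments alone, as for E110-E115, at -1.80 from -1.15 and -0.16.

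Over the 8 libraries, 14 of 39 ordered Otx2 pairs were above the additive expectation and 1 was below (limma, 5% FDR), where 20.2% and 9.06% of all 2760 ordered pairs were called. Of the 14, 12 held E114 or E115, and 2 of the 17 tested pairs without either were called above. This grouping was made after the values were seen. No pair that held E110 was called above, of 11 tested. Without the Fgf5 library 17 of 38 were called above and 3 below. The calls of 10 of the 14 did not change on leaving out any single library. Over the replicates of each library 120 of 308 values were called above and 21 below, where the series had 22.4% and 10.6%.

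The pairs of E111 with a fragment inside the gene reached the highest levels. E111-E114 gave observed boosts of 5.09, 5.13 and 5.13 with the Lefty1 promoter, where 4.34 was expected from the 4.26 of E111 and the 1.09 of E114 alone. The Otx2 promoter gave 2.41, 2.54 and 2.74, where 2.10 was expected. Over the 8 libraries it was above the expectation by 0.57 ± 0.07 (SE; adjusted p = 0.000585, limma), from 0.26 with Ap1m1 to 0.80 with Tbx3. Over the stronger of its fragments alone the pair gained between 0.52 with Sox2 and 0.90 with Tbx3.

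E111-E115 behaved alike in size. It gave 5.03, 5.11 and 5.15 with Lefty1, where 4.35 was expected, and 2.35, 2.48 and 2.80 with Otx2, where 2.12 was expected. Its mean over libraries was 0.58 ± 0.07 above the expectation (SE; adjusted p = 0.000605, limma), with all 8 libraries above 0. In the reverse orders, E114-E111 and E115-E111 were above the expectation by 0.33 and 0.36 and were called too.

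The 2 fragments inside the gene also exceeded the sum with each other. E115-E114 gave 1.47, 1.43 and 1.59 with the Otx2 promoter, where 1.20 was expected, and 2.16, 2.23 and 2.17 with Lefty1, where 1.69 was expected. Over libraries it was above by 0.46 (adjusted p = 0.00511, limma), and E114-E115 by 0.36 (adjusted p = 0.00176). With E108, the pairs E115-E108, E108-E115, E114-E108 and E108-E114 were above by 0.64, 0.57, 0.54 and 0.42. E115-E108 had the highest mean of the Otx2 pairs over the 8 libraries (adjusted p = 0.0189, limma). Without the Fgf5 library it was at 0.47, under E111-E114 and E111-E115 at 0.55 and 0.54. The call of E108-E114 was lost on leaving out Lefty1 or Tbx3.

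The remaining pairs called above contained E112. E114-E112 was above by 0.36, E112-E114 by 0.35, E112-E108 by 0.56 and E111-E112 by 0.21. The call of E112-E114 was lost on leaving out Otx2, Lefty1, Nanog or Tbx3, that of E112-E108 on leaving out Sox2, Lefty1 or Tbx3, and that of E111-E112 on leaving out Lefty1 or Tbx3. The pairs E108-E111, E109-E111, E109-E114, E109-E115, E111-E109, E115-E109 and E115-E112 were each called in at least 3 libraries over replicates, above or below, and not over libraries. Without the Fgf5 library E109-E114 and E115-E109 were called above, at 0.21 and 0.26 in place of 0.44 and 0.49, as was E114-E109, at 0.19 in place of 0.33. In the Fgf5 library E109-E112, named after its value was seen, stood at 3.94, the highest of any Otx2 pair and library, on replicates of 1.46, 6.89 and 3.47, and was not called (adjusted p = 0.067, limma). The observed boost was only 0.41. The expected boost was -3.53, because E109 and E112 alone were both below the baseline, at -0.74 and -0.76. The high ratio thus reflects an expectation near zero activity. In the 7 other libraries the log2 observed over expected of E109-E112 was below 0, and without Fgf5 its mean over libraries turned from 0.29 to -0.23 and was called below (adjusted p = 0.0225, limma).

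Pairs that held E110 had medians below the additive expectation. E111-E110 was the single pair called below the expectation over the 8 libraries, at -0.23 ± 0.07 (SE; adjusted p = 0.0365, limma), below in 7 of 8 libraries, a call lost on leaving out Sox2, Otx2, Lefty1, Nanog or Tbx3. Its values with the Otx2 promoter were 1.27, 1.15 and 1.74, where 1.74 was expected and E111 alone in position 1 gave 1.85. With Lefty1 it gave 3.80, 3.76 and 4.02, against 4.26 for E111 alone. In the reverse order, E110-E111 was at -0.03 over libraries (adjusted p = 0.727), and with the Otx2 promoter at 1.59, 1.32 and 1.95 where 1.88 was expected. Pairs of E110 with E114 and E115 were not called over the 8 libraries. Without the Fgf5 library E110-E114 was at -0.28 in place of -0.07 and was called below (adjusted p = 0.00918, limma). With the Otx2 promoter E110-E114 was observed at 0.08 where 0.57 was expected. The medians over all pairs that held E110 were -0.12 in the first and -0.12 in the second position.

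The 2 overlapping neighbours of E111 can be set side by side. E111-E112 gave 1.85, 1.99 and 2.28 with Otx2, where 1.86 was expected, and E112-E111 gave 1.78, 1.53 and 2.49 where 2.11 was expected. E112-E111 averaged 0.07 over libraries and was not called (adjusted p = 0.503, limma). What the overlap between neighbours contributed to these pairs was not tested.

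The order of a pair was compared where both orders were measured, in 19 Otx2 pairs. Of these 4 differed over libraries in log2 observed over expected (limma, 5% FDR), with 10.2% of 1317 pairs called in the series. E111-E114 exceeded E114-E111 by 0.24 (adjusted p = 0.018, limma) and E111-E115 exceeded E115-E111 by 0.22 (adjusted p = 0.0198), each in 8 of 8 libraries. Beside controls, E114 in position 1 was measured on both strands in the Sox2 library alone. E111-E114 had 31 strand combinations over the libraries and E114-E111 had 19. For this pair, order and the strand of E114 cannot be told apart. E108-E112 was below E112-E108 by a difference of -0.36 (adjusted p = 0.0228, limma). Beside controls, E112 in position 1 had 40 plus and 6 to 13 minus combinations with the promoters other than Fgf5. E112-E108 had 26 strand combinations over the libraries and E108-E112 had 32. What strand contributed to this difference was not tested. E109-E110 exceeded its reverse by 0.29 in 4 libraries (adjusted p = 0.0497, limma), on 1 or 2 strand combinations for each order and library. Its replicates were uneven, as -1.66, -0.31 and 1.36 for E110-E109 with Tbx3, and neither order was called in any library. The call was lost on leaving out Sox2, Klf2 or Otx2, where this difference was not measured. Without Lefty1, or without Tbx3, E109-E110 had too few libraries to be tested and none of the others was called. Without Nanog the calls of E108-E112 and E111-E115 were lost.

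Pairs within the locus were last compared with pairs of an Otx2 fragment and a fragment of another locus, of which there were 16084 combinations. The median log2 observed over expected was higher within the locus by 0.28 with Fgf5, and the differences with the other promoters ran from -0.03 with Tbx3 to 0.04 with Sox2. The mean over the 8 libraries was 0.04 ± 0.10 (SD), above 0 in 5 of 8 (p = 0.195, exact two-sided permutation test flipping the sign of each library, whose smallest possible p is 0.0078). Without the Fgf5 library it was 0.0092 (p = 0.391, by the same exact test), and with all control-control combinations in the baseline 0.021. Leaving out the overlapping pairs moved it to 0.09, with p = 0.0078, again exact, the smallest it can give.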

How the data were processed

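Reads were aligned and counted by the authors, with Bowtie2 and mm10 named in the submitters' processing notes. The deposited values are ratios of normalised cDNA to plasmid DNA counts for each combination and replicate, averaged over the barcodes that met the authors' minimum counts. Depth and barcode numbers per combination are unknown here, so no counting intervals are given.

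From these ratios, boost indices, additive expectations and differences by position, strand and order were computed in Python 3.11.15 (numpy 2.4.6, pandas 2.3.3). Combinations with an activity of 0 in any replicate were left out, for controls and fragments alike. Pair combinations whose additive expectation was not above 0 in every replicate were left out too. The alternative baseline took back control-control combinations alone. Single fragments were tested with a two-sided exact rank-sum test over combinations, promoters, positions, strands and pairs with limma 3.58.1 in R 4.3.3, and p-values were adjusted by Benjamini-Hochberg over the whole table. The tests over libraries, which need at least 4 of the 8 libraries, and the analyses of order, matched strands and same-strand combinations were chosen after seeing the data, because replicates share their plasmids. The scripts were tested on simulated data. All 7 fragments are named, with overlapping pairs and ordered pairs called over replicates in at least 3 promoters or highest or lowest in mean. The members were taken by name and no measured value was used for this, but members and lists were set with earlier results of these data known. Alternatives covered replicates, baselines, combination minimums, expectations and the Fgf5 library.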

Additional observations from a re-analysis of the deposited data

Results flagged for a closer look

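The response of every Otx2 fragment differed between promoters by limma's F test. The same held for 100% of the 49 fragments of the series measured with every promoter. The highest minus the lowest promoter mean was 1.67 for E108, 1.84 for E109, 1.65 for E110, 3.43 for E111, 1.23 for E112, 0.99 for E114 and 1.32 for E115. The lowest mean belonged to Fgf5 for E109, E110, E112, E114 and E115, and to Ap1m1 for E108 and E111. Without Fgf5 the means ran from 0.27 to 0.83 for E109, -0.37 to 0.53 for E110 and -0.00 to 0.75 for E112. They ran from 0.68 to 0.98 for E114 and 0.61 to 1.14 for E115.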

How the results depend on the processing

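Higher calls of single fragments numbered from 43 to 50 over the alternatives, beside 44. The 50 came with control-control zeros taken in and the fragments' own zeros left out. Lower calls, 2 in the report, numbered 1 to 4 on leaving out a replicate, 5 with limma over replicates and 4 at 5% FDR. The median boost of 0.70 was 0.70 to 0.74 without a replicate and 0.79 with all control-control combinations in the baseline, where the promoter difference was called for 2 fragments. Own-promoter calls lower numbered 6 without Fgf5 and 1 with same-strand combinations. The small own-promoter differences turned sign. With all control-control combinations E109, E114 and E115 were at -0.16, -0.25 and -0.25, and without Fgf5 at -0.18, -0.13 and -0.18. On leaving out a replicate E114 ranged from -0.033 to 0.063 and E115 from -0.089 to 0.048. With the replicate block 7 fragments still differed between promoters, and 0 were higher and 2 lower with the Otx2 promoter. Same-numbered replicates of different libraries had a median correlation of 0.36 (71 of 84 over 0.1). Those with different numbers had a median of -0.19 (26 of 168 over 0.1), so replicates of the same number were more alike. The study does not state what the numbers share, and the main tests did not take them as a pairing.

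Calls over replicates fell on leaving out 1 replicate, for position from 6 higher and 18 lower to 0 to 1 and 0 to 9, for strand from 32 and 6 to 0 and 0, and for pairs from 120 above and 21 below to 0 to 61 and 0 to 7. Each of these fits rests on 2 replicates. A multiplicative expectation gave 30 pairs above and 56 below. It moved the same-locus minus other-locus difference from 0.04 to 0.11, omitting overlapping pairs to 0.093, omitting Fgf5 to 0.0092 and all control-control combinations to 0.021. Over libraries, on leaving out 1 library, higher position calls ranged from 0 to 2 (0 within strands), lower strand calls from 1 to 2, pairs below from 0 to 3 (0 with singles by strand) and order calls from 0 to 3 higher and 0 to 1 lower. Of the pairs named by the rule, 4 turned sign when 1 library was left out, none of them called. E108-E111 ranged from -0.0047 to 0.10, E109-E111 from -0.00071 to 0.12, E110-E111 from -0.063 to 0.0026 and E110-E115 from -0.074 to 0.23.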
